A study of Rattus norvegicus with 6 samples.

Results

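Transcript levels in RSC96, an immortalised line of rat Schwann cells, were compared between cells kept with a piezoelectric material (PVDF@PDA) and cells kept with a non-piezoelectric one (PCL@PDA). Libraries were taken by the material named in their titles, which selected 4 of the series' 6 libraries, 2 for each material. Per the labels, all cells were wild type, and both materials were applied during a hypoxia model in which medium conditioned by macrophages was given for 24 h. Each material has replicate 1, from batch 1, and replicate 3, from batch 3. The other 2 libraries are labelled Control, and whether those cells received the conditioned medium is not stated. In the PCL@PDA libraries a free-text label calls the material PVDF@PDA without piezoelectricity, and the titles and treatment fields were followed. All cells are of 1 line, and the labels do not say that replicates came from separate cultures, so p-values speak only for the spread among these samples, and that spread may be technical. The comparison sets a piezoelectric against a non-piezoelectric material. The polymer differs together with piezoelectricity, and their parts in a difference cannot be told apart.

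Piezoelectric materials turn mechanical deformation into surface charge, and PVDF is the usual abbreviation of poly(vinylidene fluoride), a polymer known for this property. PCL is the usual abbreviation of polycaprolactone, a degradable polyester. Schwann cells ensheath peripheral axons, and after nerve injury they leave the myelinating state, remodel the matrix and release factors that act on neurons and macrophages. They sense force and voltage through mechanically gated channels such as Piezo1 and through voltage-gated calcium channels, which were therefore examined together with calcium signalling, matrix, metabolic, stress and cell-cycle genes.

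The 4 material libraries held 32760123 to 34460767 counted reads, and 1 of them stood apart. PCL@PDA replicate 3 differed from PCL@PDA replicate 1 by a median absolute log2 value of 0.10 over the 8816 genes with a mean of at least 10 CPM (read counts scaled to library size by the TMM method). The PVDF@PDA pair differed by 0.0672 on the same measure. Across materials, PCL@PDA replicate 1 lay as near to the PVDF@PDA libraries (0.0651 and 0.0688) as these lay to each other, while PCL@PDA replicate 3 lay at 0.110 and 0.113 from them. Counts of calls depended on this library and on PVDF@PDA replicate 3: without PCL@PDA replicate 3, 2 genes passed the test described below, and without PVDF@PDA replicate 3 none did (722 at an unadjusted p below 0.05). Where a library is left out, the remaining 1 of its group is assumed to vary like the other groups. Of 10 Schwann cell markers, Pmp22 (50.5 to 57.1 CPM of the library total in the material libraries), Erbb3 (10.3 to 12) and Egr2 (3.65 to 6.07) were among those detected above 1 CPM, and 6, among them Mbp, Ngfr and S100b, were below 1 CPM in all 4. The summed level of 20 macrophage and leukocyte markers was 33.7 and 32.4 CPM with PVDF@PDA against 32.4 and 33.2 with PCL@PDA. The leukocyte antigen Ptprc was at 0 counts in all 4 material libraries. Sums of fibroblast (963 to 1000 CPM) and of endothelial and mural markers (83.4 to 95.3) overlapped between the materials. The sum of 18 neuron markers was 262 and 268 CPM with PVDF@PDA against 253 and 261 with PCL@PDA, narrowly without overlap. Of the 18, 13 were below 1 CPM in all 4 libraries. Most of the sum came from Map2 (126 and 136 against 128 and 125) and Uchl1 (91.8 and 87.9 against 81.8 and 95.8), which each overlapped. Nefh (36.3 and 37.1 against 36.2 and 34.5) did not overlap. Among all genes tested, 38% did not overlap between the materials. The part of the neuron marker sum in the differences below was not tested.

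**Figure D1:**
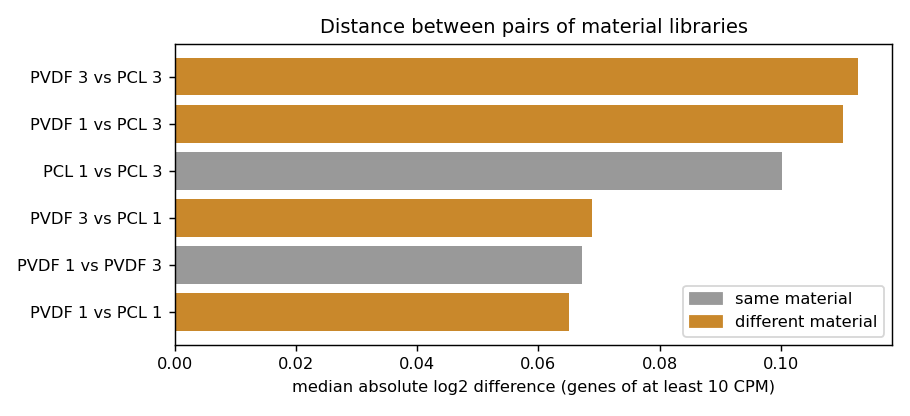
Median absolute log2 difference (x axis) between each pair of the 4 material libraries over 8816 genes of at least 10 CPM, with pairs of the same material in grey. The 3 pairs that contain PCL@PDA replicate 3 reach 0.10 to 0.113, and the other 3 pairs 0.0651 to 0.0688.

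Few transcripts separated the materials. In edgeR's quasi-likelihood test over all 6 libraries, 8 of 13018 genes (0.0615%) passed at a Benjamini-Hochberg adjusted p below 0.05. Of these, 7 were higher with PVDF@PDA (0.0538% of the genes tested) and 1 was lower (0.00768%). At an unadjusted p below 0.05 there were 1105 genes (8.49%), of which 459 were higher (3.53%) and 646 lower (4.96%). A fit that also holds a batch term called 59 genes (0.453%), of which 17 were higher (0.131%) and 42 lower (0.323%), and all 8 were among them. Across all genes the median log2 difference (PVDF@PDA minus PCL@PDA) was 0.0045, and the central range from the 5th to the 95th percentile ran from -0.36 to 0.47. Precision followed abundance. The median half-width of the 95% interval of a log2 difference was 1.53 for genes under 1 CPM, 0.50 at 1 to 10 CPM, 0.19 at 10 to 100 CPM and 0.12 above 100 CPM. These intervals are for single genes and are not adjusted for the number of genes tested. A difference smaller than its own half-width could not pass, and many larger than it did not pass the adjusted threshold either. No gene above 10 CPM on average differed by more than 1 on the log2 scale, and all 328 genes with so large a fitted difference lay below that level.

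**Figure D2:**
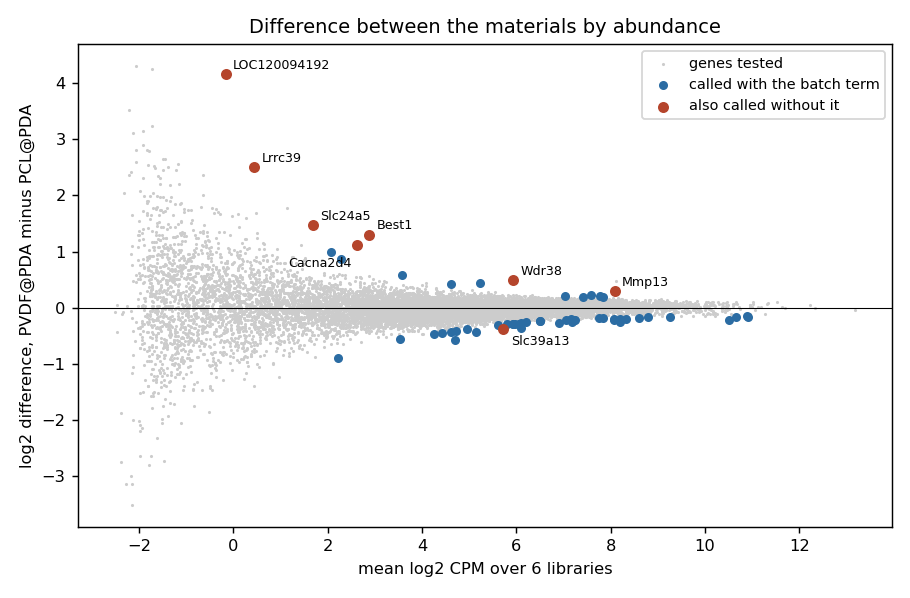
Log2 difference between the materials (y axis, PVDF@PDA minus PCL@PDA) against the mean log2 CPM over 6 libraries (x axis) for 13018 genes, with the 8 genes called in the fit without batch in red and the further genes called with the batch term in blue. The spread widens from -0.13 to 0.12 (5th to 95th percentile) above 100 CPM to -1.17 to 1.65 under 1 CPM, and most blue points are abundant genes a little below 0.

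Of the 7 higher genes, 3 encode proteins of ion transport. Best1 (gene ID 293735) encodes bestrophin 1, a chloride channel opened by calcium. Its level was 8.20 and 14.6 CPM in PVDF@PDA replicates 1 and 3, 5.01 and 4.26 in PCL@PDA replicates 1 and 3, and 5.61 and 6.14 in Control. Both PVDF@PDA libraries lay above the other 4, with replicate 3 the highest. The log2 difference between the materials was 1.30 (SE 0.21, edgeR adjusted p = 0.00205). It was 1.19 without PCL@PDA replicate 3 (adjusted p = 0.0268), and 0.82 without PVDF@PDA replicate 3 (adjusted p = 0.816).

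Cacna2d4 (gene ID 312668) encodes an alpha-2/delta subunit that accompanies the pore of voltage-gated calcium channels. Its libraries stood at 6.83 and 12.3 CPM in the PVDF@PDA libraries, 4.98 and 3.91 in the PCL@PDA libraries, and 4.59 and 3.82 in Control. Both PVDF@PDA libraries lay above the other 4, with replicate 3 the highest, and PCL@PDA overlapped with Control. The log2 difference was 1.11 (SE 0.22, edgeR adjusted p = 0.0263), 0.95 without PCL@PDA replicate 3 (adjusted p = 0.51) and 0.62 without PVDF@PDA replicate 3 (adjusted p = 0.918). Slc24a5 (gene ID 311387), a potassium-dependent sodium-calcium exchanger of pigment organelles, was at 3.01 and 6.10 CPM in the PVDF@PDA libraries, 1.74 and 1.55 in the PCL@PDA libraries, and 2.85 and 3.73 in Control. Both PCL@PDA libraries lay below the other 4, and Control overlapped with PVDF@PDA. The log2 difference between the materials was 1.47 (SE 0.30, edgeR adjusted p = 0.0263), 1.39 without PCL@PDA replicate 3 (adjusted p = 0.309) and 0.87 without PVDF@PDA replicate 3 (adjusted p = 0.918).

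No listed relative of these 3 genes passed in either fit. Of 14 tested calcium channel subunits and bestrophins, 2 rose (Best1 and Cacna2d4), none fell, and the median log2 difference was -0.07. Among the abundant subunits, Cacna2d1 differed by -0.05 (adjusted p = 0.918) and Cacna1d by -0.14 (adjusted p = 0.731). Of 24 tested genes of store-operated entry, IP3 receptors, pumps and exchangers only Slc24a5 passed (median 0.01). The store-operated channel gene Orai1 had 11.5 and 10.5 CPM with PVDF@PDA against 13.5 and 15.6 (log2 -0.41, edgeR adjusted p = 0.401, and 0.181 with the batch term). None of 25 tested calcium sensors and calcineurin-NFAT genes passed in either fit, and their median was 0.03. The reads of the 3 ion transport genes are not certain to be their own. In the RefSeq annotation of the GRCr8 assembly, Cacna2d4 overlaps Adipor2, an adiponectin receptor gene, and Slc24a5 overlaps Myef2. Best1 overlaps C2h4orf33-ps1, which was not tested, and adjoins Rab3il1 and the ferritin heavy chain gene Fth1. The strand used for counting is not given in the sources used here, so reads of overlapping genes cannot be told apart. The partner genes differed less. Adipor2 had 205 and 201 CPM in the PVDF@PDA libraries against 209 and 210 in the PCL@PDA libraries. Myef2 had a log2 difference of 0.13 (adjusted p = 0.494), Fth1 one of 0.02 (adjusted p = 0.945) and Rab3il1 one of -0.28 (edgeR adjusted p = 0.444).

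**Figure D3:**
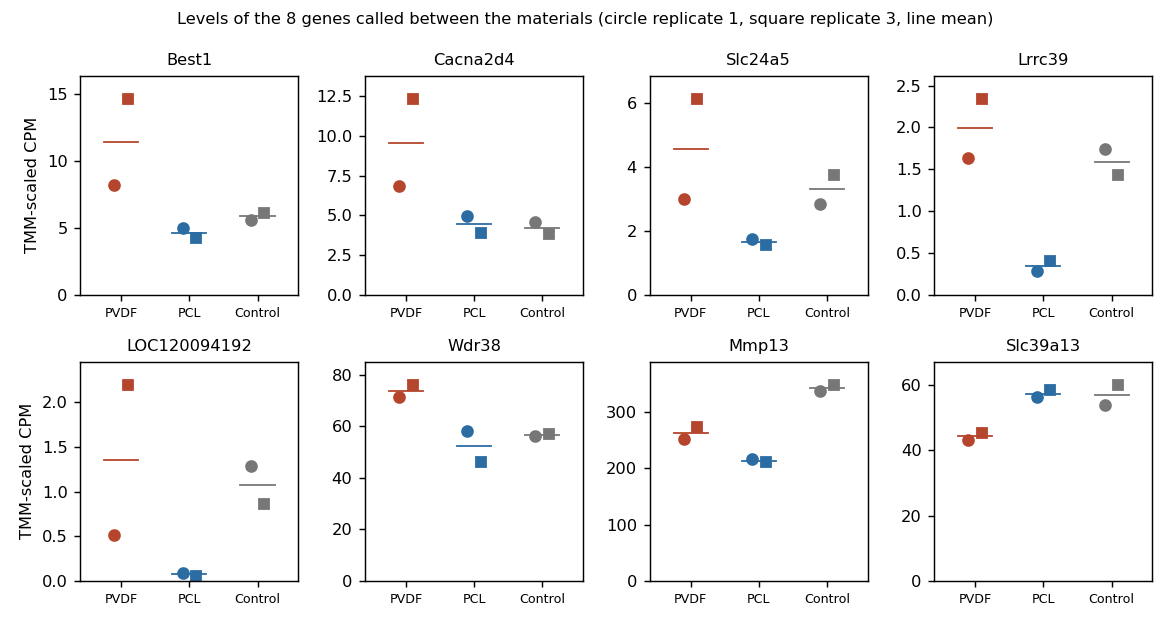
TMM-scaled CPM (y axes, each from 0) of the 8 genes called between the materials, in PVDF@PDA, PCL@PDA and Control, with replicate 1 as circles, replicate 3 as squares and the mean of 2 as a line. In Best1, Cacna2d4, Slc24a5 and LOC120094192 the PVDF@PDA squares lie well above the circles, while Mmp13 and Slc39a13 have narrow pairs.

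Of the 8 called genes, Mmp13 and Best1 also passed without PCL@PDA replicate 3. With the batch term, Mmp13 and Slc39a13 passed without that library (adjusted p = 0.0244 and 0.0274) and Best1 did not (0.316). Mmp13 (gene ID 171052) encodes a collagenase that cuts fibrillar collagen. It stood at 251 and 272 CPM in the PVDF@PDA libraries, 216 and 212 in the PCL@PDA libraries, and 337 and 347 in Control. All 3 groups were separate, with both materials below Control and PCL@PDA the lowest. The log2 difference between the materials was 0.29 (SE 0.05, edgeR adjusted p = 0.00714), 0.28 without PCL@PDA replicate 3 (adjusted p = 0.00767) and 0.23 without PVDF@PDA replicate 3 (adjusted p = 0.867). Mmp10 (gene ID 117061), the stromelysin that can activate procollagenases, had 12.1 and 14.1 CPM in the PVDF@PDA libraries, 8.36 and 9.23 in the PCL@PDA libraries, and 14 and 13 in Control. The materials did not overlap, while PVDF@PDA and Control did. Mmp10 passed only with the batch term (log2 0.57, adjusted p = 0.0386, against 0.235 without it), and without PCL@PDA replicate 3 the log2 difference was 0.65 (adjusted p = 0.523). Of 18 tested metalloproteinases and their inhibitors, 1 rose without the batch term and 2 with it, and none fell (median 0.07). The other stromelysin, Mmp3, was at 5.25 and 10.2 CPM against 5.70 and 4.90, so that its groups overlapped (log2 0.55, adjusted p = 0.49). Timp1, the main secreted inhibitor, had a log2 difference of -0.11 (adjusted p = 0.584).

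Mmp13 and Mmp10 belong to 1 cluster of metalloproteinase genes and are textbook targets of AP-1, the dimer of Jun and Fos proteins. The 150 bases before each annotated start are shown (RefSeq, GRCr8, plus strand, Mmp13 chr8:12782679-12782828 and Mmp10 chr8:12974557-12974706), because these are the members of the family that passed together. Capitals mark the match to the AP-1 motif TGANTCA, which reads the same on both strands.
Mmp13: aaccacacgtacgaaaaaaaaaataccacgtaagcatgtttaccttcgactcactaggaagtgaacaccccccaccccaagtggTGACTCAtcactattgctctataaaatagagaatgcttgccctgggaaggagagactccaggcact
Mmp10: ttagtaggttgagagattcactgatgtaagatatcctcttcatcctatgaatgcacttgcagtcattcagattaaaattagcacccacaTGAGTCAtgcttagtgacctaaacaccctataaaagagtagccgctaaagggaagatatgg
Each window holds 1 match, centred 63 bases before the start in Mmp13 and 58 bases in Mmp10. The same motif occurs in 325 of 12114 such windows of tested genes (2.68%). A match describes the letters only and shows no binding. Windows of other metalloproteinase genes were not examined singly, so the match is not shown to be particular to Mmp13 and Mmp10. Of 32 tested AP-1 and immediate-early genes none passed in either fit (median -0.03). Jun had 185 and 175 CPM with PVDF@PDA against 183 and 172 with PCL@PDA (log2 0.02, adjusted p = 0.952), and Fosl1 had 442 and 450 against 470 and 505 (log2 -0.13, adjusted p = 0.469).

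The single gene lower with PVDF@PDA in the fit without batch was Slc39a13 (gene ID 295928). It encodes ZIP13, a zinc transporter of the early secretory pathway that is needed for collagen hydroxylation and whose loss causes a connective tissue disorder. Its level was 43.2 and 45.4 CPM in the PVDF@PDA libraries, 56.3 and 58.4 in the PCL@PDA libraries, and 54.0 and 59.9 in Control. Both PVDF@PDA libraries lay below the other 4, and the differences within batch 1 (-0.38) and batch 3 (-0.36) were nearly equal. The log2 difference was -0.37 (SE 0.08, edgeR adjusted p = 0.0354), and -0.35 without PCL@PDA replicate 3 (adjusted p = 0.242). With the batch term and without that library it was -0.40 and passed (adjusted p = 0.0274). Without PVDF@PDA replicate 3 the adjusted p was 0.37, and without PVDF@PDA replicate 1 it was 0.416. Of 20 tested zinc transporters and metallothioneins no other passed in either fit (median -0.01). Of 24 tested enzymes and helpers of collagen hydroxylation and crosslinking, Slc39a13 fell in both fits and Loxl1 with the batch term, none rose, and the median was -0.08. Loxl1 (gene ID 315714), a lysyl oxidase that crosslinks elastin and collagen, had 265 and 283 CPM in the PVDF@PDA libraries, 305 and 352 in the PCL@PDA libraries, and 270 and 277 in Control. PCL@PDA replicate 3 was the highest library. The log2 difference of Loxl1 was -0.26 (edgeR adjusted p = 0.0594, and 0.000177 with the batch term), and -0.15 without PCL@PDA replicate 3 (adjusted p = 1.00). The median of the list was 0.00 without that library. Pcolce, which speeds the trimming of procollagen, had 194 and 197 CPM against 204 and 242 (log2 -0.19, adjusted p = 0.398, and 0.0519 with the batch term). None of 23 tested collagens and laminins passed in either fit (median 0.00).

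Of the other 3 called genes, Wdr38 (gene ID 366035) was the most abundant. It encodes a protein of WD repeats and stood at 71.3 and 76.0 CPM in the PVDF@PDA libraries, 58.4 and 46.3 in the PCL@PDA libraries, and 56.3 and 57.2 in Control. The PVDF@PDA libraries lay above the other 4 (log2 0.49, SE 0.08, edgeR adjusted p = 0.00205), and the difference was 0.34 without PCL@PDA replicate 3 (adjusted p = 0.16) and 0.44 without PVDF@PDA replicate 3 (adjusted p = 0.142). Wdr38 overlaps the ribosomal protein gene Rpl35. The latter was at 655 and 637 CPM in the PVDF@PDA libraries and 675 and 619 in the PCL@PDA libraries (adjusted p = 0.993). Lrrc39 (gene ID 691307), a leucine-rich repeat gene known as a component of the muscle sarcomere, had 54 and 80 counts with PVDF@PDA, 10 and 14 with PCL@PDA, and 58 and 50 in Control. Both PCL@PDA libraries lay below the other 4, and PVDF@PDA overlapped with Control. The ratio of the counts between the materials was 5.7 with an exact 95% interval of 3.67 to 9.2 (edgeR adjusted p = 0.0263, 0.152 without PCL@PDA replicate 3 and 0.755 without PVDF@PDA replicate 3). Its overlapping neighbour Trmt13, a tRNA methyltransferase gene, had a log2 difference of 0.13 (adjusted p = 0.667).

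LOC120094192 is named Aph1bl1 in the newer annotation, a copy of Aph1b, which encodes a subunit of gamma-secretase. It had 17 and 75 counts with PVDF@PDA, 3 and 2 with PCL@PDA, and 43 and 30 in Control. The ratio between the materials was 18.8, with an exact interval of 7.76 to 59.2 that, like the one for Lrrc39, covers counting error only (edgeR adjusted p = 0.0127, 0.242 without PCL@PDA replicate 3 and 0.903 without PVDF@PDA replicate 3). It lies between 2 related genes, Aph1b and Aph1bl2 (LOC691658 in the deposited table), and how the authors' counting divided reads among such copies is not given. The called difference of the single copy is therefore uncertain. Aph1b had 4.13 and 4.88 CPM with PVDF@PDA against 4.17 and 4.58, and Aph1bl2 had 12.2 and 15.7 against 15.5 and 16.6, so that LOC120094192, at no more than 2.19 CPM in these libraries, is the rarest of the 3.

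The batch term raised the number of lower genes from 1 to 42 and of higher genes from 7 to 17. Both fits used the same libraries. All 59 genes had the same direction in both batches, against 54.2% of all genes tested, and in all 59 the 4 libraries did not overlap between the materials, against 38% of all genes. Since the fit selects for both properties, these are descriptions. In all 42 lower genes PCL@PDA replicate 3 was the extreme library, meaning the 1 farthest from the PVDF@PDA mean. There PCL@PDA replicate 1 lay between it and the PVDF@PDA pair. The same order held in 13 of the 17 higher genes. This measure favours PCL@PDA libraries, since both PVDF@PDA libraries enter the mean. Best1, Cacna2d4, Slc24a5 and LOC120094192 show this order, yet in them PVDF@PDA replicate 3 lay well above PVDF@PDA replicate 1. Of all 13018 genes tested, PCL@PDA replicate 3 was the extreme library in 7530. In 5290 of the 13018, PCL@PDA replicate 1 lay between it and the PVDF@PDA mean. The median difference of the lower genes was -0.16 in batch 1 and -0.34 in batch 3, and that of the higher genes 0.29 and 0.70. Without PCL@PDA replicate 3 all 59 kept their direction, but 3 passed with the batch term (Mmp13, Slc39a13 and Ftl1) and 2 without it (Mmp13 and Best1). Without PVDF@PDA replicate 3 all 59 also kept their direction with the batch term, and none passed in either fit. With that term the difference shrank by more than 1.5 times in 31 of the 59 without PCL@PDA replicate 3, and in 22 without PVDF@PDA replicate 3. Without PCL@PDA replicate 1, 827 genes passed (6.16%), 387 of them higher (2.88%) and 440 lower (3.28%), and 57 of the 59 were among them. In 639 of the 826 of these genes that were also tested over all libraries (77.4%), the difference in batch 1 had the same sign. PVDF@PDA replicate 1 enters both that fit and the batch 1 difference, so the share is a description.

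**Figure D4:**
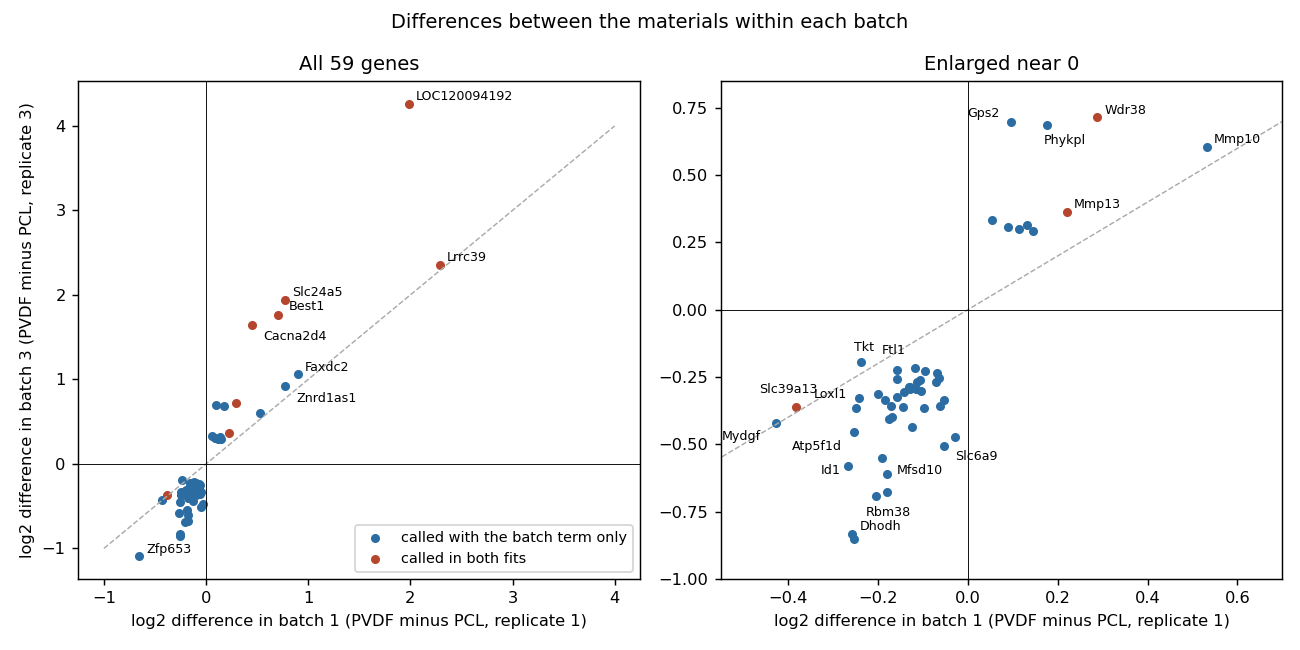
Log2 difference between the materials in batch 1 (x axis) and batch 3 (y axis) for the 59 genes called with the batch term, all of them on the left and an enlargement near 0 on the right, with the line of equality dashed. The 17 higher genes lie in the upper right and the 42 lower genes in the lower left, and most points lie farther from 0 in batch 3 than in batch 1.

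Among the higher genes of the fit with batch, Faxdc2, which encodes a fatty acid hydroxylase domain protein, had 4.74 and 5.55 CPM in the PVDF@PDA libraries, 2.52 and 2.63 in the PCL@PDA libraries, and 5.04 and 4.42 in Control. PCL@PDA alone was low (log2 1.00, adjusted p = 0.0246 with the batch term and 0.124 without it). Phykpl, an enzyme of hydroxylysine breakdown, had 40.8 and 48.3 CPM against 36.1 and 30.0 (log2 0.43, adjusted p = 0.00205 with the batch term). Gps2, a subunit of the NCoR corepressor complex, had 23.8 and 33.7 CPM against 22.3 and 20.8 (log2 0.40, adjusted p = 0.0441), with a difference of 0.10 in batch 1 and of 0.14 without PVDF@PDA replicate 3. The antisense transcript Znrd1as1 had a log2 difference of 0.86 (adjusted p = 0.0386).

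Among the lower genes, Zfp653, a zinc finger repressor, had the largest difference, with 3.19 and 3.04 CPM in the PVDF@PDA libraries, 5.06 and 6.54 in the PCL@PDA libraries, and 5.07 and 4.53 in Control (log2 -0.89, adjusted p = 0.0386 with the batch term). PVDF@PDA was below the other 4 libraries. Dhodh, the pyrimidine synthesis enzyme of mitochondria, had 10.7 and 9.70 CPM against 12.8 and 17.3, with Control at 9.87 and 8.61 (log2 -0.56, adjusted p = 0.0442, and -0.33 without PCL@PDA replicate 3). Here PCL@PDA alone was high. Mydgf, a secreted growth factor, had 26.5 and 31.3 CPM against 35.6 and 42.0, with Control at 37.3 and 38.0, so PVDF@PDA alone was low (log2 -0.43, adjusted p = 0.0037). Its differences in batch 1 (-0.43) and batch 3 (-0.42) were nearly equal. Id1, an inhibitor of helix-loop-helix factors and a target of BMP signalling, had 22.7 and 21.6 CPM against 27.4 and 32.3, with 22.5 and 20.7 in Control (log2 -0.43, adjusted p = 0.0261). The p53 target Rbm38, the chemokine-like factor family member Cmtm7, the transporter gene Mfsd10 and Igfbp6, which binds insulin-like growth factor II, had log2 differences of -0.46, -0.43, -0.40 and -0.37 (adjusted p = 0.0386 to 0.039). None of the 4 passed without the batch term (adjusted p = 0.242 to 0.327), and without PCL@PDA replicate 3 Rbm38, Cmtm7 and Mfsd10 were at -0.20, -0.16 and -0.18.

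Ribosomal protein genes made up 5 of the 42 lower genes. Of 64 tested cytosolic ribosomal proteins, none passed without the batch term and 5 fell with it (Rplp0, Rplp1, Rpl13, Rpl18 and Rpl36), none rose, and the median log2 difference was -0.05. In 34 of the 64 (53.1%) the difference was below 0 in both batches, against 26.7% of all genes tested. The median without PCL@PDA replicate 3 was -0.04, and -0.0048 with a trend on gene length removed. Rplp0, the acidic stalk protein, had 1866 and 1874 CPM in the PVDF@PDA libraries, 1960 and 2260 in the PCL@PDA libraries, and 1762 and 1907 in Control. PCL@PDA replicate 3 was the highest of the 6, and PCL@PDA replicate 1 was nearer to the PVDF@PDA pair (log2 -0.17, adjusted p = 0.00811 with the batch term and 0.372 without it, and -0.07 without PCL@PDA replicate 3). Rpl18 had the lowest value of the list at -0.21 and Rpl38 the highest at 0.11. Each of these differences is small, and a scaling by library totals alone, with the batch term, gave 68 lower and 18 higher genes in place of 42 and 17.

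In energy metabolism the called differences were also small. Of 18 tested glycolytic enzymes 1 fell with the batch term, and 11 (61.1%) were below 0 in both batches, against 26.7% of all genes. Their median was -0.06, or -0.02 without PCL@PDA replicate 3 and -0.04 with a trend on gene length removed. The called gene was Eno1, the enolase, with 1531 and 1565 CPM against 1637 and 1834 (log2 -0.16, adjusted p = 0.0197, and -0.08 without PCL@PDA replicate 3). Gapdh had 1133 and 1189 CPM against 1210 and 1357 (log2 -0.14, adjusted p = 0.0698 with the batch term). Of 43 nuclear-encoded genes of the respiratory chain and ATP synthase, 1 fell with the batch term, namely Uqcrq of complex III with 43.9 and 44.9 CPM against 52.2 and 57.8 (log2 -0.31, adjusted p = 0.0386). Atp5f1d, a subunit of the ATP synthase that the list did not hold, had 59.1 and 63.5 CPM against 70.5 and 87.1, with 61.3 and 67.0 in Control (log2 -0.36, adjusted p = 0.000625, and -0.20 when PCL@PDA replicate 3 was left out). The list's median was -0.06, or -0.05 without PCL@PDA replicate 3 and -0.03 with a trend on gene length removed. A total of 24 of the 43 (55.8%) were below 0 in both batches, against 26.7% of all genes tested.

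**Figure D5:**
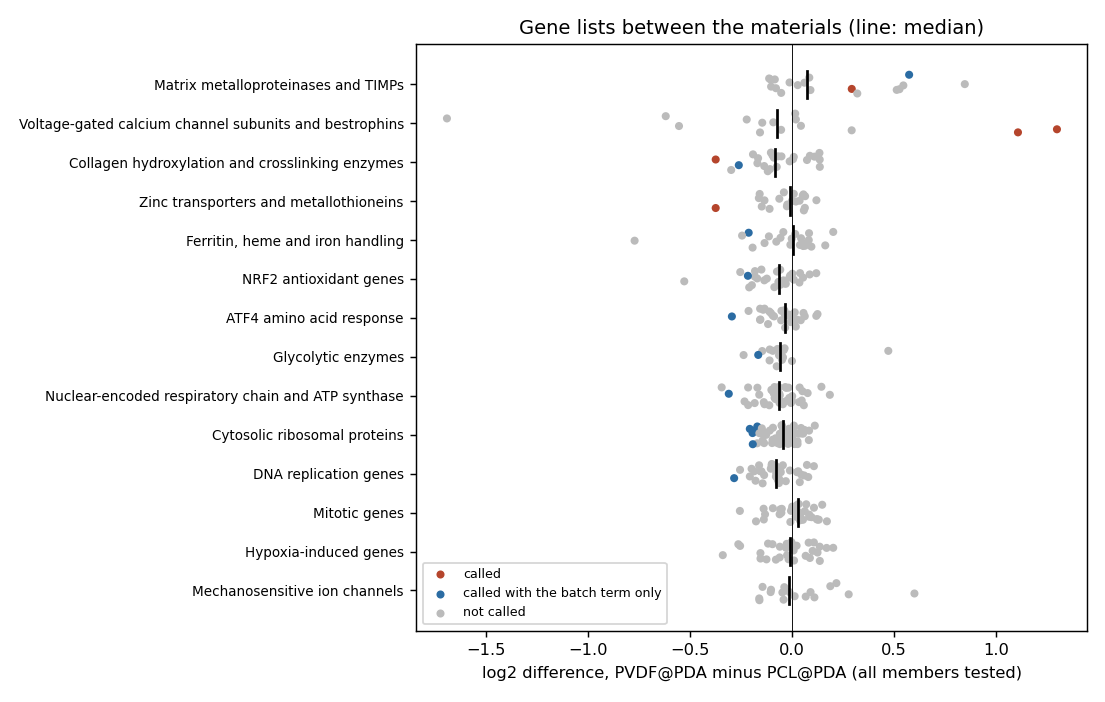
Log2 difference between the materials (x axis) of every tested member of 14 gene lists, with members called in the fit without batch in red, those called only with the batch term in blue and each list's median as a black line. List medians lie between -0.08 and 0.07, and Slc39a13 appears in both the collagen and the zinc list.

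Antioxidant, iron and amino acid genes gave 3 calls, each with the batch term. Ftl1, the ferritin light chain that stores iron, had 1443 and 1549 CPM in the PVDF@PDA libraries, 1610 and 1853 in the PCL@PDA libraries, and 1082 and 1187 in Control. Both materials lay above Control and PCL@PDA the highest (log2 -0.21, adjusted p = 0.000276 with the batch term and 0.266 without it). The difference was -0.11 without PCL@PDA replicate 3 (adjusted p = 1.00), and -0.17 with the batch term, when it passed (adjusted p = 0.0274). The heavy chain Fth1, at 3208 and 3395 CPM against 3273 and 3254, overlapped between the materials. Ftl1 was the only 1 of 22 tested genes of ferritin, heme and iron that passed with the batch term (median 0.01). Of 29 tested NRF2 antioxidant genes 1 fell with that term, the pentose phosphate enzyme Tkt with 118 and 127 CPM against 139 and 146 (log2 -0.22, adjusted p = 0.0386). In this list 18 of 29 (62.1%) were below 0 in both batches, against 26.7% of all genes tested. The list's median was -0.06, or -0.07 without PCL@PDA replicate 3 and -0.05 with a trend on gene length removed. Heme oxygenase Hmox1, the classic NRF2 target, had 152 and 191 CPM against 188 and 183, with Control at 78.1 and 90.3. The materials overlapped, and both lay above Control (log2 -0.11, adjusted p = 0.752). The Hmox1 difference was -0.31 in batch 1 and 0.06 in batch 3, so its direction changed between the batches. With the batch term and without PCL@PDA replicate 3 it was -0.28. Of 30 tested genes of the ATF4 amino acid response 1 fell with the batch term, the glycine transporter gene Slc6a9 with 52.1 and 50.5 CPM against 54.0 and 71.7 (log2 -0.29, adjusted p = 0.0386). Its difference was -0.05 in batch 1 and -0.51 in batch 3, and -0.08 without PCL@PDA replicate 3. None of 27 heat shock and ER chaperone genes (median 0.01) and none of 34 lysosome and autophagy genes (median -0.05) passed in either fit. Of the lysosomal genes 21 (61.8%) were below 0 in both batches, against 26.7% of all genes tested. Their median was -0.01 without PCL@PDA replicate 3 and -0.03 with a trend on gene length removed. The lysosomal genes Plbd2 and Atp6v0c, which the list did not hold, fell with the batch term. Their log2 differences were -0.25 and -0.19 (edgeR adjusted p = 0.00352 and 0.0448, and 0.0938 and 0.372 without that term). Without PCL@PDA replicate 3 they were -0.16 and -0.09.

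Of 35 tested DNA replication genes 1 fell with the batch term. In 18 (51.4%) the difference was below 0 in both batches, against 26.7% of all genes tested. The median was -0.08, or -0.07 with a trend on gene length removed. Mcm5, a subunit of the replicative helicase, had 63.7 and 59.5 CPM in the PVDF@PDA libraries, 69.4 and 80.4 in the PCL@PDA libraries, and 46.5 and 47.9 in Control. All 3 groups were separate, with Control the lowest (log2 -0.28, adjusted p = 0.0386 with the batch term and 0.255 without it, and -0.17 without PCL@PDA replicate 3). The helicase subunits Mcm2 and Mcm3 had log2 differences of -0.18 and -0.20 (adjusted p = 0.441 and 0.425). None of 34 mitotic genes passed in either fit, and their median was 0.03, with -0.03 in batch 1 and 0.08 in batch 3, and -0.02 without PCL@PDA replicate 3. None of 23 p53 and arrest genes passed (median -0.02). Cdkn1a, the p21 inhibitor, had 138 and 132 CPM against 146 and 160 (log2 -0.18, adjusted p = 0.401, and 0.108 with the batch term). None of 13 BCL2 family genes passed (median -0.11), and their median was -0.02 without PCL@PDA replicate 3.

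No mechanical or hypoxia gene of the lists passed. None of 17 tested mechanosensitive channel genes passed in either fit or had an unadjusted p below 0.05 (median -0.01). Piezo1 had 157 and 155 CPM in the PVDF@PDA libraries, 154 and 181 in the PCL@PDA libraries, and 149 and 144 in Control. The materials overlapped, with PCL@PDA replicate 3 alone high, and the log2 difference of -0.10 had a 95% interval from -0.23 to 0.02 (adjusted p = 0.657). The difference was 0.02 without PCL@PDA replicate 3. None of 25 YAP and TAZ regulators and targets (median 0.00), 23 SRF and actin genes (median -0.06) and 20 integrin and adhesion genes (median -0.04) passed. Of the SRF and actin genes 13 (56.5%) were below 0 in both batches, against 26.7% of all genes tested. Their median was -0.05 with a trend on gene length removed. Outside the lists, Flnc, Pfn1, Trip6 and Lmna, genes of the cytoskeleton, adhesions and nuclear lamina, fell with the batch term. Their log2 differences were -0.16, -0.21, -0.29 and -0.19 (edgeR adjusted p = 0.0482, 0.00892, 0.0386 and 0.0188, and 0.235 to 0.398 without that term). Without PCL@PDA replicate 3 they were -0.08, -0.14, -0.27 and -0.13. None of 30 hypoxia-induced genes passed (median -0.01). Vegfa, the angiogenic factor, had 487 and 483 CPM against 482 and 481, and its log2 difference of 0.01 had an interval from -0.09 to 0.11 (adjusted p = 0.973). Bnip3, a mitophagy receptor, had 244 and 239 CPM against 247 and 229 (log2 0.02, interval -0.09 to 0.14, adjusted p = 0.931). The glucose transporter gene Slc2a1 had 277 and 275 CPM against 293 and 321, with no overlap (log2 -0.15, adjusted p = 0.424, and 0.137 with the batch term).

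Schwann cell state genes gave 1 call. Of 20 tested immature and repair genes, Id1 fell with the batch term, none rose, and the median was 0.02. None of 8 tested myelin genes passed (median -0.06), and 11 of the 19 listed had too few reads for the test or were absent from the table. Egr2, the transcription factor that drives myelination, had 4.40 and 3.62 CPM with PVDF@PDA against 5.87 and 5.96 with PCL@PDA (log2 -0.56, adjusted p = 0.49). The groups did not overlap, and the interval of the difference ran from -1.02 to -0.10. None of 17 tested neurotrophic factors and receptors passed (median 0.01). Lif, a cytokine released by injured nerve, had 65.9 and 69.7 CPM against 62.4 and 61.2, with Control at 104 and 106 (log2 0.13, adjusted p = 0.60). None of 31 axon guidance genes passed in either fit (median -0.04). Of 26 tested TGF-beta and BMP genes only Id1 passed with the batch term (median 0.02). In bulk RNA a change in the share of cells in a state and a change in RNA per cell cannot be told apart.

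The lists of inflammatory genes gave no call. None of 32 tested chemokines, cytokines and NF-kB feedback genes passed in either fit (median 0.01). Tnfsf18, a TNF superfamily gene that the lists did not hold, rose with the batch term. It had 244 and 259 CPM with PVDF@PDA against 235 and 206 with PCL@PDA (log2 0.19, edgeR adjusted p = 0.0386, and 0.398 without that term). The difference was 0.10 without PCL@PDA replicate 3. The neutrophil chemokine gene Cxcl6 had 27.4 and 27.4 CPM with PVDF@PDA against 21.9 and 23.7 with PCL@PDA, and 63.6 and 65.2 in Control (log2 0.26, adjusted p = 0.416). None of 24 interferon-induced genes passed (median -0.03). None of 10 tested complement genes passed in either fit or had an unadjusted p below 0.05, but their median was 0.32, the highest of the lists, and 7 (70%) were above 0 in both batches against 27.6% of all genes. The larger values in this list came from rare transcripts. C3, the central component, had 4.16 and 3.10 CPM against 2.23 and 2.66 (log2 0.57, adjusted p = 0.635). The abundant C1r and C1s, which encode the proteases of the classical pathway, had log2 differences of 0.06 and 0.09 (adjusted p = 0.776 and 0.709). None of 25 cholesterol genes (median -0.04) and 17 clock genes (median 0.03) passed. Without PCL@PDA replicate 3 the medians of 13 of all 40 lists changed sign. These 13 medians lay between -0.04 and 0.09 with that library and between -0.11 and 0.03 without it.

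Gene length moved with the difference. Gene lengths were derived from the deposited counts and FPKM values and were not taken from an annotation. Genes of at least 10 CPM were put in 5 length classes. In class 1, the shortest, the median log2 difference was -0.04 in batch 1 and -0.02 in batch 3, and in class 5, the longest, it was 0.02 and 0.04. The genes that fell with the batch term had a median length of 2090.5 bases, those that rose 2736 bases, and all genes tested 3129 bases. With a trend on length removed from each library, the fit with batch called 38 genes, 22 higher and 16 lower, and 28 of the 59 were among them. These were 15 of the 17 higher genes and 13 of the 42 lower genes. In that fit Mmp13, Slc39a13, Loxl1 and Atp5f1d still passed (adjusted p = 1.58e-06, 0.00518, 0.00165 and 0.00667), and the adjusted p was 0.0221 for Ftl1 and 0.103 for Rplp0. Lower genes that did not pass there also included Eno1, Uqcrq, Tkt, Mcm5, Slc6a9, Id1, Dhodh, Zfp653, Rbm38, Cmtm7, Mfsd10 and Igfbp6 (adjusted p = 0.0516 to 0.116).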

How the data were processed

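RNA was sequenced from 6 libraries of RSC96 cells. The authors deposited raw read counts of 16849 genes in all libraries, and per the file headers an FPKM value for each gene and library. FPKM values were used here in an alternative test and, with the counts, to derive gene lengths (median over libraries). The submitters' processing notes list DESeq2 1.4.5 and the assembly mRatBN7.2 with no role. Which aligner, counter, annotation and strand they used is not given in the sources used here. Totals were 32760123 to 35389307 counts, and 3 counts equal 0.0848 to 0.0916 CPM. Intervals of count ratios and this limit cover counting error only.

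The main model was a robust quasi-likelihood fit of 3 group means to the counts of all 6 libraries in edgeR 4.0.16, run in R 4.3.3, with TMM scaling and 3 residual degrees of freedom. By filterByExpr, 13018 genes were tested and 3831 left out. The test was 2-sided, with a threshold of 0.05 on p-values adjusted by Benjamini-Hochberg across the whole table. Levels are TMM-scaled CPM. The code was tested on simulated data. Alternatives used DESeq2 1.42.0, limma 3.58.1 on log2(FPKM + 1) and log2(FPKM + 0.1), other scalings, filters and sets of libraries, and offsets that remove a trend on gene length.

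The labels name a batch for each replicate number, so the numbers pair the libraries. Over 8816 genes, deviations of same-numbered libraries from their group means correlated at 0.0153 between the materials, and with Control at 0.0536 for PVDF@PDA and 0.22 for PCL@PDA. The fit with batch had 2 residual degrees of freedom and took most of its spread from the trend over all genes.

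Gene IDs of 16673 genes matched RefSeq (GRCr8), used for neighbours and promoter sequences. The comparison, the 40 gene lists and the members were chosen with earlier results of these data known. Genes were named if called, if among the 10 largest rises, 10 largest falls and 10 smallest p of the fit with batch (mean log2 CPM of at least 1, a gene symbol, the same direction in both batches), if among the 3 smallest p of a list or called in it, if next to a called gene, or if on a fixed list that includes Piezo1, Vegfa, Bnip3, Slc2a1, Hmox1, Jun, Mmp13, Fth1 and Ftl1. Cacna2d1, Cacna1d, Timp1, C1r, C1s, Rpl38, Tnfsf18, Plbd2, Atp6v0c, Flnc, Pfn1, Trip6 and Lmna were chosen after their values were seen. Some genes covered by the rule are not reported here.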

Additional observations from a re-analysis of the deposited data

How the results depend on the processing

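The number of genes called moved with several choices, and the cause was not tested. Against 8 genes, edgeR with the replicate block called 59, and 52 with RLE size factors, 86 with library totals alone, 22 without robust estimation, 38 with the length trend removed and 13 in the 4 material libraries alone, each with the replicate block. Without the block, library totals alone and DESeq2 gave 5 each, and no filter on low counts gave 17. DESeq2 with the replicate block called 30 of the 843 genes that its filter on mean counts kept. On deposited FPKM values limma called 0 with either pseudocount (905 and 825 genes at an unadjusted p below 0.05). Leaving out 1 library gave 0 to 827 genes: 0 without PVDF@PDA replicate 3 (722 unadjusted), 2 without PCL@PDA replicate 3, 10 without PVDF@PDA replicate 1, 13 without either Control and 827 without PCL@PDA replicate 1. With the replicate block as well, an alternative chosen after seeing the data, the counts were 2 without PVDF@PDA replicate 3, 5 without PCL@PDA replicate 3, 199 without PVDF@PDA replicate 1 and 648 without PCL@PDA replicate 1. The other 5 alternatives gave 6 to 12 genes.

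Among 63 of the genes given with a difference, 9 changed sign under some alternative. None of the 9 was called in the fit of all libraries, with or without the batch term. Leaving out 1 library gave log2 differences from -0.0295 to 0.0789 for Bnip3, -0.0166 to 0.129 for C1r, -0.0271 to 0.0553 for Fth1, -0.29 to 0.0421 for Hmox1, -0.0269 to 0.066 for Jun, -0.0159 to 0.945 for Mmp3, -0.218 to 0.0202 for Piezo1 and -0.0648 to 0.0605 for Rpl35. With the replicate block, the value without PCL@PDA replicate 3 was -0.0417 for Bnip3, -0.0177 for Fth1 and 0.036 for Piezo1, and that without PVDF@PDA replicate 3 was -0.0191 for Fth1 and -0.0701 for Mmp3. With the block and without PVDF@PDA replicate 1, Hmox1 was at 0.0017, Rpl35 at 0.0035 and Vegfa at -0.002, and without PCL@PDA replicate 1 Hmox1 was at 0.0359 and Rpl35 at 0.0538. With the length trend removed Rpl35 was at 0.0392, and at 0.0396 with the block.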

Other observations

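Of 16463 genes counted in at least 1 material library, 46 had at least 10 counts in 1 material and none in the other. All 46 were too rare for the test. Of these, 31 were at 0 in both PCL@PDA libraries and 15 at 0 in both PVDF@PDA libraries. In some, such as Hgd and Rnf165 with PVDF@PDA and Mbl2 with PCL@PDA, all reads of the material came from a single library. The following were chosen after their values were seen. Nrxn2, which encodes a presynaptic adhesion protein, had 5 and 10 counts with PVDF@PDA, 0 and 0 with PCL@PDA, and 7 and 1 in Control. PVDF@PDA and Control overlapped, and PCL@PDA alone was at 0. The calcium-binding protein gene Calb1 had 6 and 5 counts with PVDF@PDA and 4 and 1 in Control, and the calcium channel subunit gene Cacnb4 had 1 and 9 with PVDF@PDA and 1 and 0 in Control, with 0 in both PCL@PDA libraries for each. In the other direction Fcna, a ficolin of the lectin pathway, had 14 and 7 counts with PCL@PDA, 0 and 0 with PVDF@PDA, and 1 and 0 in Control. A count of 0 allows up to 3 counts in a library, so these values give no fold.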
